A study of Bos taurus with 8 samples.

Results

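The genes described here are 8 genes that carry fatty acids, activate them, join them into triacylglycerol or coat the droplets in which it is stored. They were taken by name from the authors' table of 18825 genes, and all 8 (FABP3, FABP5, ACSL3, MOGAT1, DGAT1, DGAT2, PLIN2 and PLIN3) were found there. Polyadenylated RNA was measured in 286 single cells of bovine (Bos taurus) embryos, which came in 6 libraries labelled wildtype and numbered as replicates 1 to 6. The labels give no strain, no sex and no embryo for a cell, so the library, a pool of barcoded cells, was the replicate, and p-values reflect only how libraries differ, which may be technical. Classes and days are those of the authors' cell table. They were Morula (day 6 after fertilization, 58 cells), EB (day 7, 39 cells), MB TE (day 8, 37 cells), MB ICM (day 8, 51 cells), LB PE (day 9, 25 cells), LB TE (day 9, 31 cells) and LB EPI (day 9, 45 cells). The field writes TE for trophectoderm, ICM for inner cell mass, PE for primitive endoderm (hypoblast) and EPI for epiblast, while EB, MB and LB are printed as that table has them. A further 2 libraries, of embryos injected with base editor RNA, were not analysed here.

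Fatty acids are poorly soluble and move through the cytosol bound to carrier proteins of the FABP family. Acyl-CoA synthetases couple them to coenzyme A, and acyltransferases build them into diacylglycerol and then triacylglycerol in the endoplasmic reticulum. Perilipins cover the lipid droplets that bud from the endoplasmic reticulum. Oocytes and early embryos of cattle are known for their large store of lipid droplets, which feeds fatty acid oxidation before implantation.

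Levels are given as CPM, counts per 1000000 reads assigned to genes in a cell, and each value is the mean of the cells that 1 library holds of 1 class. The 16 averages of at least 3 cells held 276 cells. MB TE had averages of 21, 12 and 3 cells (replicates 1, 2 and 3) and MB ICM of 24, 21 and 5 cells (replicates 1, 2 and 5). Those of LB PE rested on 14 and 9 cells and those of LB TE on 21 and 9 cells (replicates 3 and 5 in both classes), and those of LB EPI on 11, 9 and 24 cells (replicates 2, 3 and 5). The Morula averages came from replicates 4 (13 cells) and 6 (45 cells) and that of EB from replicate 4 (35 cells). The labels give all 4 ages, days 6 to 9, for every library, but in the cell table the cells of day 6 and day 7 came from replicates 4 and 6 and those of day 8 and day 9 from the other libraries, except 2 EB cells of replicate 1, too few for an average. Among the averages, age and the set of libraries therefore cannot be told apart between day 7 and day 8, and levels are set side by side there with no test. In the orders of levels below, overlap or its absence across that step describes the averages only. CPM depends on transcript length, so levels are compared between classes and not between genes. A cell had a median of 150770.5 reads, and by class the median ran from 39210 reads in LB PE to 198116 in MB TE. The 7 trophectoderm markers examined summed to between 30370 and 57790 CPM in MB TE and LB TE and to between 1465 and 6417 CPM in the other 5 classes. The 7 hypoblast markers summed to 6020 and 5703 CPM in LB PE, to between 366 and 863 CPM in LB TE and LB EPI, to between 3914 and 4218 CPM in MB ICM and to 3213 CPM in EB, and 1 of them, SOX17, was at 0 in LB PE. The 7 epiblast markers summed to between 2493 and 2965 CPM in LB EPI and to less than that in every other class. The authors named the classes on the same cells, so differences between classes are not independent of that naming, and how it was done is not stated in the sources at hand.

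The members did not move as 1 block. In both trophectoderm classes FABP5, ACSL3 and PLIN3 were higher and FABP3 and PLIN2 lower than in MB ICM on day 8 and LB EPI on day 9, and MOGAT1 was higher on day 9. LB PE had more FABP3 and DGAT2 than LB EPI and LB TE in the main fit, DGAT2 on few reads. Its FABP5 and ACSL3 were above those of LB EPI. DGAT1 passed no test. Changes are differences of log2(CPM + 10), and a gene was called when its adjusted p was under 0.05 in limma (Benjamini-Hochberg over 12540 tested genes), and all 8 members passed the filter on low values. In MB TE against MB ICM 3 members were called higher and 2 lower, where 5.97% of all tested genes were called higher and 4.11% lower. In LB TE against LB EPI 4 were higher and 2 lower, with 8.27% and 6.90% of all tested genes. LB PE against LB EPI gave 4 higher and 0 lower, with 2.98% and 2.41% of all tested genes, and LB PE against LB TE gave 2 higher and 2 lower, with 2.46% and 3.39%. These day 9 comparisons share their LB EPI, LB TE or LB PE averages, so they are not independent of each other. The members, and the pathway lists below, were chosen with earlier results of these data known. The shares are therefore no test of them as sets. The median log2 change of the members was -0.0084 in MB TE against MB ICM (-0.044 over all tested genes), 0.95 in LB TE against LB EPI (-0.041), 1.07 in LB PE against LB EPI (-0.010) and -0.48 in LB PE against LB TE (0.022).

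**Figure D1:**
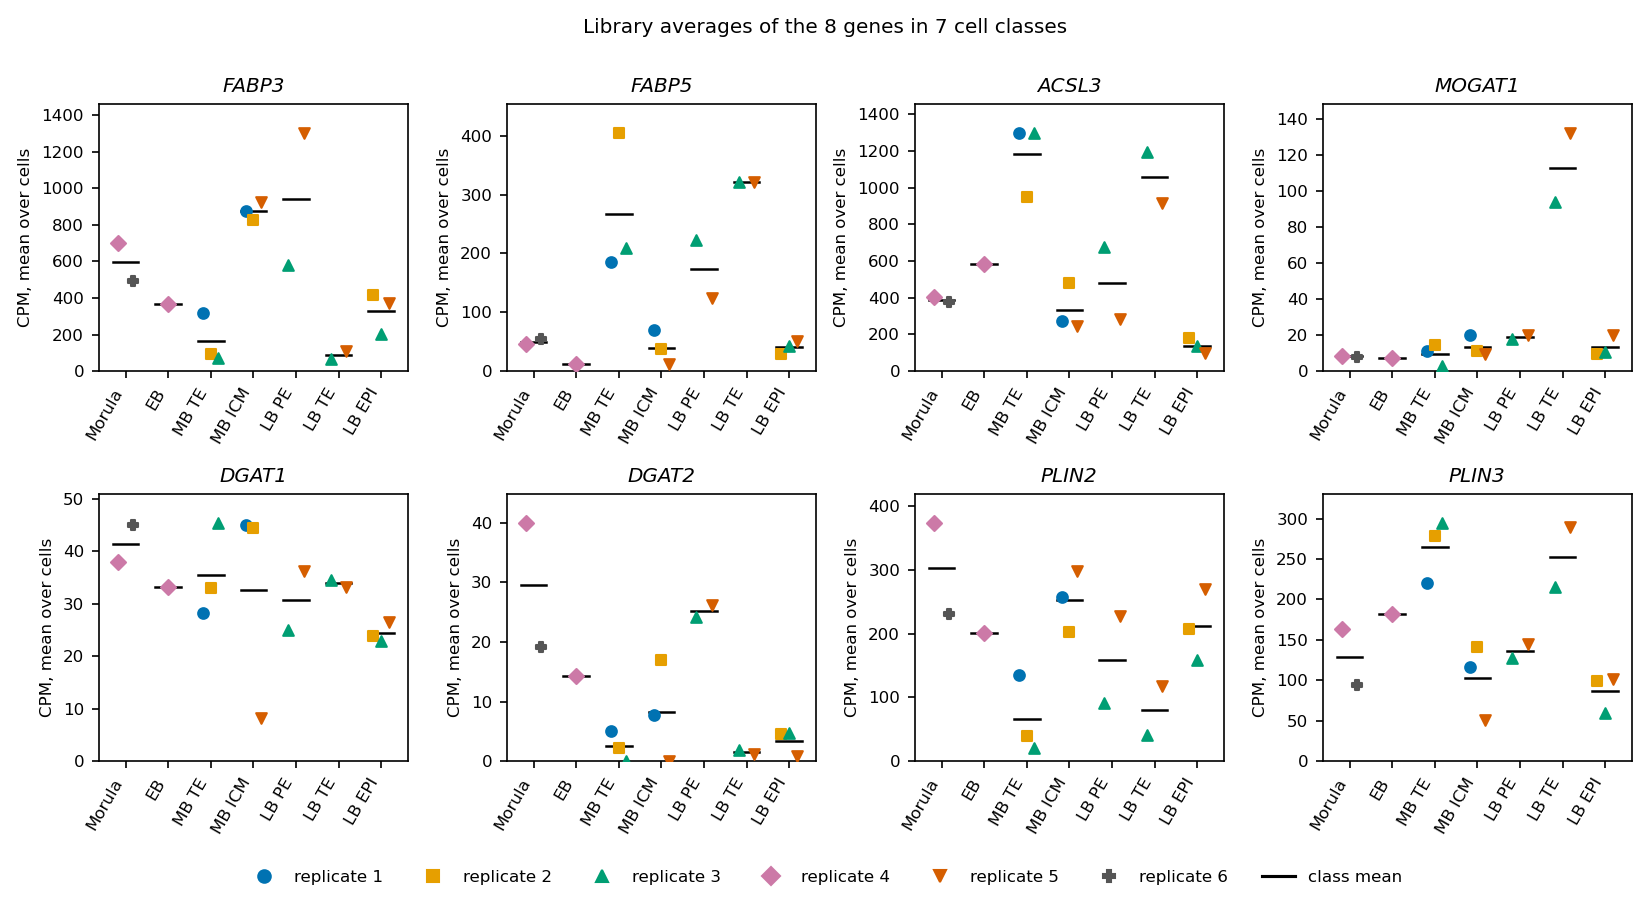
Mean CPM of the cells of each class in each library (vertical axes, a linear scale of its own for each gene) in the 7 classes, with 1 symbol per library and a bar at the class mean. FABP5, ACSL3 and PLIN3 are high in both TE classes, FABP3 and PLIN2 low there, and MOGAT1 stands out in LB TE, at 93.6 and 132 CPM.

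**Figure D2:**
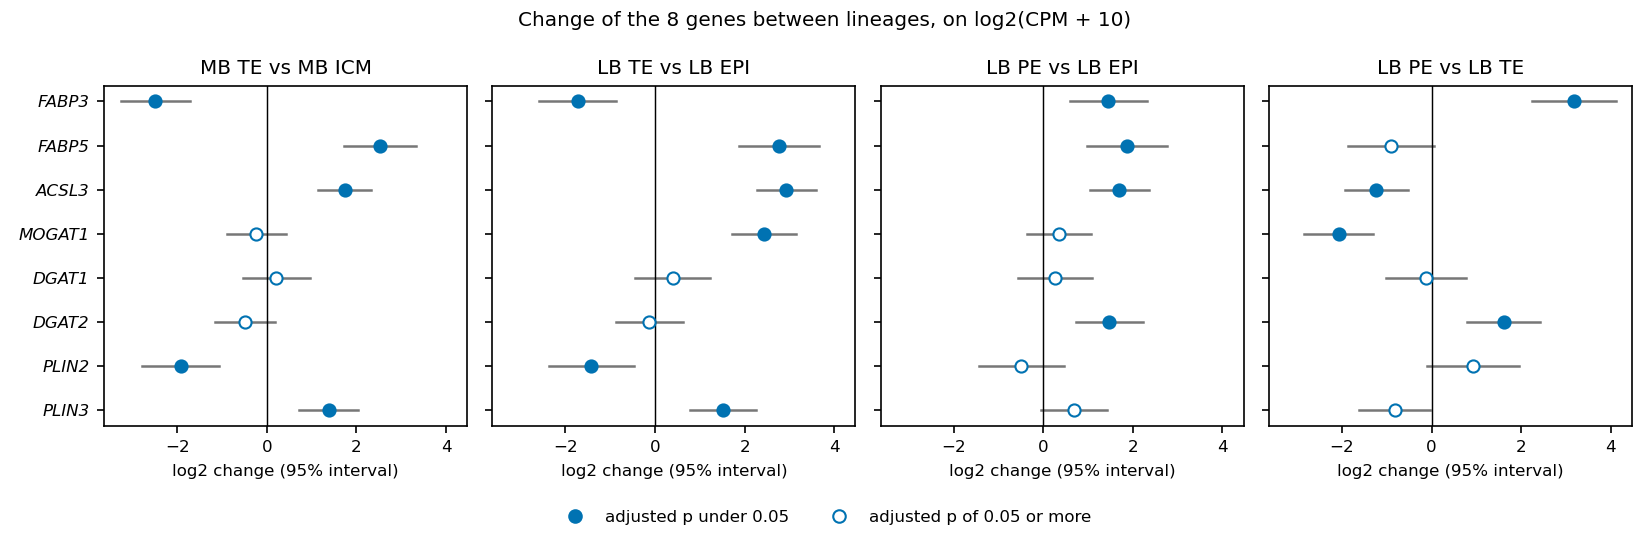
Log2 change on the log2(CPM + 10) scale (horizontal axes) with its 95% interval for each gene in the 4 comparisons of lineages, filled where the adjusted p from limma is under 0.05. FABP5 and ACSL3 lie right of 0 in the first 3 panels and FABP3 lies left of 0 in the first 2.

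The 2 carriers had opposite patterns in trophectoderm. FABP3, the heart-type carrier, averaged 317, 95.4 and 74.5 CPM in the MB TE libraries (replicates 1, 2 and 3), against 877, 825 and 923 CPM in the MB ICM libraries (replicates 1, 2 and 5). Every MB TE library was below every MB ICM library, and replicate 1 stood highest of the MB TE libraries. The log2 change was -2.49 (SE 0.37, adjusted p = 0.000188), and within replicates 1 and 2, which held both classes, the difference was -1.44 and -2.98. Such values from single averages of a class carry no test. The hypoblast marker sum was also highest in replicate 1 of MB TE, at 1033 CPM, against 524 and 619.9 CPM in replicates 2 and 3, and its part in the FABP3 level was not tested.

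On day 9 FABP3 averaged 68.2 and 111 CPM in LB TE (replicates 3 and 5), against 416, 203 and 373 CPM in LB EPI (replicates 2, 3 and 5). The groups did not overlap, and the log2 change was -1.73 (SE 0.41, adjusted p = 0.0067). Without replicate 5 the change was -1.80 and missed the threshold (adjusted p = 0.0776). In LB PE FABP3 averaged 579 and 1305 CPM, above every LB EPI library, a log2 change of 1.45 (SE 0.41, adjusted p = 0.0445). This call is weak, since it was lost without replicate 2 (adjusted p = 0.0612), 3 (0.0733), 4 (0.0535), 5 (0.363) or 6 (0.0508). The 5 fibroblast markers, none of them at 0 in LB PE, summed to 259 and 880.5 CPM there, against 174, 182 and 293 CPM in LB EPI, so they were also highest in replicate 5 of LB PE, and their part was not tested. Within replicates 3 and 5 LB PE exceeded LB EPI by 1.46 and 1.78 on the log2 scale. The contrast of LB PE with LB TE was the largest of the member changes, 3.18 (SE 0.44, adjusted p = 0.000276), and it was called under every alternative tried. FABP3 thus ranked in the order LB PE (942 ± 513 CPM, SD, n = 2), MB ICM (875 ± 49.1, n = 3), Morula (597 ± 147, n = 2), EB (369.7, 1 library), LB EPI (331 ± 112, n = 3), MB TE (162 ± 135, n = 3) and LB TE (89.5 ± 30.1, n = 2). The libraries of LB PE and MB ICM overlapped, as did those of EB and LB EPI, LB EPI and MB TE, and MB TE and LB TE.

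FABP5, the epidermal-type carrier, averaged 186, 405 and 209 CPM in the MB TE libraries, against 70.5, 38.2 and 11.7 CPM in the MB ICM libraries. The groups did not overlap, and the lowest MB ICM value was that of replicate 5, which rested on 5 cells. The log2 change was 2.52 (SE 0.39, adjusted p = 0.00018), with 1.28 within replicate 1 and 3.11 within replicate 2. A single cell of 7581 reads held 62.4% of the FABP5 sum of MB ICM in replicate 1, and the 22 cells there with at least 20000 reads averaged 29.0 CPM. In cells of that depth the difference was 2.33 within replicate 1 and 3.05 within replicate 2, and the change over all libraries was 2.83 (adjusted p = 8.18e-07). On day 9 FABP5 averaged 322 and 321 CPM in LB TE, against 29.6, 42.1 and 51.6 CPM in LB EPI. The LB TE libraries were nearly equal and far above all LB EPI libraries, with a log2 change of 2.76 (SE 0.43, adjusted p = 0.000135). Both trophectoderm calls held under every alternative tried. In the order of levels LB TE (321 ± 0.502 CPM, SD, n = 2), MB TE (267 ± 120, n = 3) and LB PE (174 ± 69.6, n = 2) came first, each overlapping the next. They stood clear of Morula (50.1 ± 6.73, n = 2), LB EPI (41.1 ± 11.1, n = 3), MB ICM (40.1 ± 29.5, n = 3) and EB (12.8, 1 library), whose neighbours overlapped. The overlap of LB PE with MB TE rested on replicate 3 of LB PE. It was lost in cells of at least 20000 reads, where LB PE averaged 121 and 114 CPM.

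In LB PE FABP5 averaged 223 CPM (replicate 3) and 124 CPM (replicate 5), and both libraries were above every LB EPI library. FABP5 thus rose by 1.86 (SE 0.43, adjusted p = 0.0131), which missed the threshold without replicate 2 (adjusted p = 0.0545) or 3 (0.223). The trophectoderm marker sum in LB PE was 6417 CPM in replicate 3 and 2608 CPM in replicate 5, against 1467, 2582 and 1465 CPM in LB EPI, and its part in the FABP5 level was not tested. The gap between the LB PE libraries rested mostly on 1 cell of 5703 reads, which held 45.0% of the FABP5 sum in replicate 3. In cells of at least 20000 reads LB PE averaged 121 and 114 CPM, and its change against LB EPI was 1.45 (adjusted p = 0.00769). Between LB PE and LB TE the FABP5 change of -0.91 (SE 0.46, 95% interval -1.87 to 0.059) did not pass (adjusted p = 0.29, limma). It did pass with limma-voom on summed reads (-1.64, adjusted p = 0.0107) and in cells of at least 20000 reads (-1.38, adjusted p = 0.017). In the RefSeq annotation FABP5 overlaps a long noncoding RNA gene, LOC104974070, and with no strand setting given for the counting, reads of the 2 genes cannot be told apart.

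ACSL3, the synthetase that activates fatty acids on the endoplasmic reticulum and on forming droplets, averaged 1298, 948 and 1299.8 CPM in the MB TE libraries, against 272, 479 and 248 CPM in the MB ICM libraries. All MB TE values were above all MB ICM values. ACSL3 rose by 1.74 (SE 0.28, adjusted p = 0.000292), with 2.21 within replicate 1 and 0.97 within replicate 2. On day 9 ACSL3 averaged 1194 and 919 CPM in LB TE, against 179, 135 and 97.3 CPM in LB EPI. The gap was wider than on day 8, with a change of 2.93 (SE 0.31, adjusted p = 2.37e-06) and differences of 3.06 and 3.11 within replicates 3 and 5. The change between the days, 1.19 (SE 0.42), did not pass (adjusted p = 0.286, limma).

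LB PE lay between the other day 9 classes, with ACSL3 at 675 CPM in replicate 3 and 284 CPM in replicate 5. It was above LB EPI by 1.69 in log2 terms (SE 0.31, adjusted p = 0.00281), which missed the threshold without replicate 3 (1.19, adjusted p = 0.118). It was below LB TE by a change of -1.24 (SE 0.34, adjusted p = 0.0331), lost without replicate 3 (adjusted p = 0.0577) or 5 (-0.81, adjusted p = 0.362). The LB PE library with more ACSL3 was replicate 3, which also had the higher trophectoderm marker sum (6417 against 2608 CPM), and the part of that in the result was not tested. In the order of levels MB TE and LB TE overlapped at the top and stood clear of EB (583 CPM, 1 library), and LB EPI was below every other class. EB overlapped LB PE, as did LB PE with Morula (404 and 376 CPM) and Morula with MB ICM. A pseudogene, LOC508628, overlaps ACSL3 in the annotation, so its count may be shared.

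MOGAT1, which adds a fatty acid to monoacylglycerol, was low in all classes but LB TE. It averaged 93.6 and 132 CPM in LB TE (replicates 3 and 5), against 9.46, 10.4 and 19.8 CPM in LB EPI (replicates 2, 3 and 5). It averaged 17.6 and 19.9 CPM in LB PE and between 3.11 and 19.8 CPM in the libraries of the other 4 classes. No library of another class came near LB TE, and among the others only Morula (8.40 and 7.93 CPM) and EB (7.41 CPM, 1 library) were neighbours that did not overlap. The log2 change was 2.43 against LB EPI (SE 0.35, adjusted p = 5.17e-05), a call kept under every alternative tried. LB PE differed from LB TE by -2.08 (SE 0.37, adjusted p = 0.00151), which missed the threshold without replicate 5 (adjusted p = 0.0731).

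On day 8 the MOGAT1 difference was not detectable. There it averaged 11.3, 14.4 and 3.11 CPM in MB TE, against 19.8, 11.3 and 9.51 CPM in MB ICM, and the groups overlapped (log2 change -0.23, SE 0.31, 95% interval -0.88 to 0.42, adjusted p = 0.739). The trophectoderm difference was larger on day 9 than on day 8 by 2.66 in log2 terms (SE 0.47, adjusted p = 0.0123, limma). MOGAT1 was the 1 member called in that test, in which 0.215% of all tested genes were called higher and 0.152% lower. The members' median was 0.43, against 0.0015 over all tested genes. The size of the difference held between 2.53 and 2.80 when each library was left out, while its adjusted p passed 0.05 without replicate 1 (adjusted p = 0.0942), 2 (0.0753), 3 (0.224) or 5 (0.0721) and with a pseudocount of 1 (0.0845). LB TE was also higher than MB TE directly, by 2.71 (SE 0.36, adjusted p = 0.000774), which missed the threshold without replicate 3 (adjusted p = 0.0746) or 5 (0.0568). Replicate 3 held both trophectoderm classes, and there LB TE exceeded MB TE by 2.98.

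**Figure D3:**
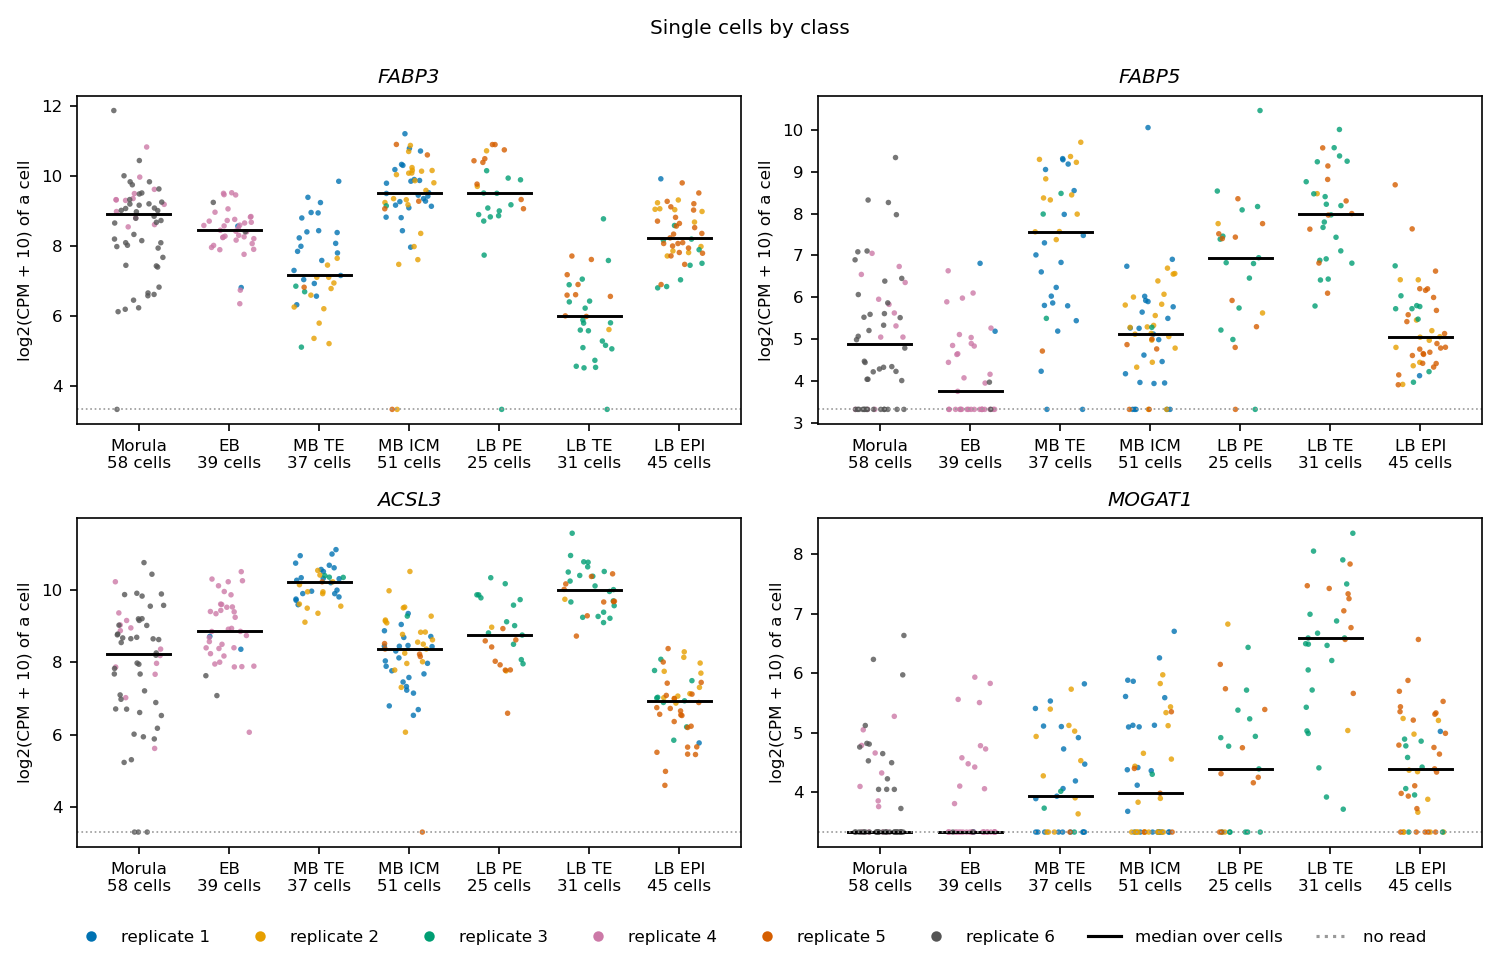
Log2(CPM + 10) of 4 genes in each cell (vertical axes), grouped by class and coloured by library, with a bar at the median over cells and a dotted line where a cell has no read of the gene. MOGAT1 has a read in 31 of 31 LB TE cells, and FABP5 spreads widely within both TE classes.

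DGAT1 and DGAT2 are unrelated enzymes that both carry out the last step of triacylglycerol synthesis. DGAT1 averaged 28.3, 33.0 and 45.5 CPM in MB TE, against 45.0, 44.4 and 8.23 CPM in MB ICM. The groups overlapped, and the low MB ICM value rested on 5 cells (replicate 5). The log2 change of 0.21 (95% interval -0.54 to 0.96) did not pass (adjusted p = 0.805, limma), and its sign turned without replicate 3 (-0.0061), without replicate 5 (-0.31) and with limma-voom (-0.037). On day 9 DGAT1 averaged 25.04 and 36.2 CPM in LB PE, 34.5 and 33.3 CPM in LB TE and 23.9, 22.8 and 26.5 CPM in LB EPI. Both LB TE values were above the LB EPI values, yet the change of 0.39 (95% interval -0.44 to 1.22) did not pass either (adjusted p = 0.611, limma). Over all 7 classes the mean of DGAT1 ran only from 24.4 CPM in LB EPI to 41.5 CPM in Morula (38.0 and 45.0 CPM in its libraries), with EB at 33.3 CPM. LB TE and EB were the 1 pair of neighbours in that order that did not overlap. DGAT1 overlaps the heat shock factor gene HSF1 in the annotation, so part of its count may belong to HSF1.

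DGAT2 differed where DGAT1 did not. It averaged 24.2 and 26.2 CPM in LB PE (replicates 3 and 5), against 4.54, 4.71 and 0.900 CPM in LB EPI (replicates 2, 3 and 5). The log2 change was 1.47 (SE 0.36, adjusted p = 0.0175). Against the 1.95 and 1.18 CPM of LB TE the LB PE change was 1.61 (SE 0.39, adjusted p = 0.0144). Neither group overlapped LB PE, but both calls rest on few reads, since an LB PE cell had a mean of 1.16 reads of DGAT2 and only 10 of 25 cells had any. A single cell held 64.3% of the DGAT2 sum in replicate 3 and 67.5% in replicate 5 of LB PE. The replicate 5 cell had 6295 reads. In cells of at least 20000 reads LB PE averaged 28.3 CPM in replicate 3 and 10.9 CPM in replicate 5. Its changes were then 1.16 against LB EPI (adjusted p = 0.0459) and 1.29 against LB TE (adjusted p = 0.0385, limma for both). The call against LB EPI was lost without replicate 3 (adjusted p = 0.0817) or 5 (0.144), and the call against LB TE likewise (0.113 and 0.151). Both were lost with limma-voom (0.177 against LB EPI and 0.104 against LB TE). They were also lost with a pseudocount of 1 (adjusted p = 0.0824 and 0.0641) and with the mean of log2 values (0.0758 and 0.0695). With no replicate block the call against LB EPI was lost as well (0.0531). On day 8 DGAT2 averaged 5.13, 2.25 and 0 CPM in MB TE, against 7.75, 16.9 and 0 CPM in MB ICM, and did not differ detectably at this depth (log2 change -0.49, adjusted p = 0.393, limma). The zeros are averages of 3 and 5 cells. Its highest level was that of Morula, at 40.0 CPM in replicate 4 and 19.2 CPM in replicate 6, and EB had 14.3 CPM. Morula and LB PE overlapped and stood clear of EB, and each later neighbour down to LB TE overlapped the one before. In cells of at least 20000 reads replicate 5 of LB PE, at 10.9 CPM, was below EB, at 15.6 CPM.

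Among the droplet coats PLIN2 and PLIN3 went opposite ways in trophectoderm. PLIN2, which is found on droplets and is degraded when free of them, averaged 136, 40.2 and 20.2 CPM in MB TE, against 258, 203 and 298 CPM in MB ICM. The groups did not overlap, and replicate 1 was again the highest of MB TE. PLIN2 fell by 1.92 in log2 terms (SE 0.41, adjusted p = 0.00431), which missed the threshold without replicate 2 (adjusted p = 0.0745). On day 9 PLIN2 averaged 41.7 and 118 CPM in LB TE, against 208, 159 and 271 CPM in LB EPI, a log2 change of -1.42 (SE 0.45, adjusted p = 0.0397). This change missed the threshold without replicate 2 (adjusted p = 0.107), 3 (0.227) or 5 (0.088) and with 3 other settings. The groups did not overlap, which with so few averages carries no test. Rescaling averages by the median of ratios (adjusted p = 0.0602) left 4 members higher and 1 lower in this comparison. LB PE, at 90.7 and 228 CPM, overlapped both other day 9 classes. Its PLIN2 change did not pass against LB EPI (-0.50, 95% interval -1.45 to 0.45, adjusted p = 0.631) or LB TE (0.93, 95% interval -0.10 to 1.95, adjusted p = 0.313; limma for both). The mean ran from 303 ± 102 CPM in Morula (SD, n = 2) through 253 ± 47.7 in MB ICM, 212 ± 56.3 in LB EPI (n = 3 each), 201 in EB (1 library), 159 ± 96.8 in LB PE and 80.0 ± 54.2 in LB TE (n = 2 each) to 65.4 ± 61.8 in MB TE (n = 3), and every class overlapped its neighbour.

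PLIN3, which moves between the cytosol and young droplets, averaged 219.8, 279 and 295 CPM in MB TE, against 117, 142 and 50.7 CPM in MB ICM. No MB TE library was as low as any MB ICM library. PLIN3 rose by 1.39 in log2 terms (SE 0.32, adjusted p = 0.0061), which missed the threshold without replicate 3 (adjusted p = 0.0596). On day 9 PLIN3 averaged 215 and 289 CPM in LB TE, against 99.4, 59.5 and 102 CPM in LB EPI, with a log2 change of 1.51 (SE 0.35, adjusted p = 0.00485) that lost its call without replicate 3 (adjusted p = 0.0712). LB PE had 128 and 145 CPM, above every LB EPI library, but the log2 change of 0.69 (95% interval -0.047 to 1.42) did not pass (adjusted p = 0.3, limma). The 2 TE classes were almost equal, with a change of 0.0054 in LB TE against MB TE (95% interval -0.75 to 0.76). They stood clear of EB (182 CPM, 1 library), and EB of the classes below it, LB PE, Morula (164 and 93.6 CPM), MB ICM and LB EPI, which overlapped in that order. A single EB cell of 8878 reads held 21.2% of the PLIN3 sum of EB. In cells of at least 20000 reads EB averaged 154 CPM, below the 164 CPM of Morula in replicate 4, so EB was then not clear of Morula.

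Between day 6 and day 7 no difference of a member was detectable. In EB against Morula 0 of 8 were called by limma and 0 by limma-voom, and 1 had an unadjusted p under 0.05, where 0.0399% of all tested genes were called higher and 0.0399% lower. That member was FABP5, at 12.8 CPM in EB (replicate 4), against 45.3 and 54.8 CPM in Morula (replicates 4 and 6), with a log2 change of -1.37 (SE 0.58, adjusted p = 0.917). EB has 1 average, which was assumed to vary like the other classes. Both FABP3 (701 and 493 CPM) and PLIN2 (375 and 231 CPM) were well represented in Morula, and the members' median change in EB was -0.41, against -0.0041 over all tested genes. In replicate 6 the Morula average also had cumulus and granulosa markers that summed to 196 CPM, against 4.84 CPM in replicate 4, and 5 fibroblast markers summed to 601 CPM in replicate 6, against 53.6 CPM in replicate 4. The part of these in the member levels was not tested.

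From day 8 to day 9 few members were called, either in LB TE against MB TE or in LB EPI or LB PE against MB ICM. MOGAT1, given above, was the 1 member called in LB TE against MB TE, where 0.159% of all tested genes were higher and 0.0319% lower. In LB EPI against MB ICM ACSL3 was the 1 call, at 179, 135 and 97.3 CPM in LB EPI, against 272, 479 and 248 CPM in MB ICM. The groups did not overlap, and the log2 change was -1.24 (SE 0.28, adjusted p = 0.0117), while 3.29% of all tested genes were higher and 1.81% lower. Without replicate 2, 3 or 5 ACSL3 missed the threshold (adjusted p = 0.0694, 0.0559 and 0.0557). FABP3 moved by a similar amount, -1.27 (SE 0.37, 95% interval -2.05 to -0.50), and its adjusted p of 0.0529 from limma missed the threshold. FABP3 passed with limma-voom (adjusted p = 0.0124) and with at least 5 cells per average (0.0395). It also passed in cells of at least 20000 reads (0.0299) and without replicate 1 (0.0305). The hypoblast markers summed to between 3914 and 4218 CPM in MB ICM, against 567.9 to 863.3 CPM in LB EPI. The part of this in both changes was not tested.

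In LB PE against MB ICM FABP5 was called higher by 2.08 (SE 0.44, adjusted p = 0.0328), in a comparison that called 0.59% of all tested genes higher and 0.112% lower. This call was lost under most alternatives, among them the fits without replicate 2 (adjusted p = 0.0566), 3 (0.179), 4 (0.0548) or 5 (0.232). FABP3 overlapped between these classes, at 579 and 1305 CPM in LB PE, against 877, 825 and 923 CPM in MB ICM (log2 change 0.18, 95% interval -0.71 to 1.06).

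To set the classes side by side at 1 depth, every cell was thinned to 20000 reads and shallower cells were left out (0 of 37 in MB TE, 4 of 51 in MB ICM, 5 of 25 in LB PE, 0 of 31 in LB TE, 2 of 45 in LB EPI, 3 of 39 in EB and 8 of 58 in Morula). Intervals are exact binomial at 95% and cover counting error only. MOGAT1 had a read in 71.0% of LB TE cells (52.0 to 85.8), against 10.8% of MB TE cells (3.03 to 25.4) and between 13.9% and 25.6% in the other classes. Without thinning the LB TE share was 100% and the MB TE share 62.2%. FABP5 had a read in 75.7% of MB TE cells (58.8 to 88.2), 65.0% of LB PE cells (40.8 to 84.6) and 96.8% of LB TE cells (83.3 to 99.9), against 46.8% of MB ICM and 46.5% of LB EPI cells. Without thinning these shares were 94.6%, 92.0%, 100%, 82.4% and 100%. FABP3 stayed detectable in most cells of every class, with the lowest share in LB TE at 58.1% (39.1 to 75.5), against 97.7% in LB EPI (87.7 to 99.9). Unthinned, it had a read in 96.8% of LB TE cells and 100% of LB EPI cells. DGAT2 had a read in 0 of 31 LB TE cells after thinning, which allows up to 11.2% of cells with a read at this thinned depth and does not limit the cells that express it, and in 4 of 20 LB PE cells (20%, 5.73 to 43.7) and 38.0% of Morula cells (24.7 to 52.8). Unthinned these shares were 19.4%, 40.0% and 60.3%. In the other classes the thinned DGAT2 share was 25% in EB, 19.1% in MB ICM, 5.41% in MB TE and 2.33% in LB EPI. Molecular identifiers are not described in the sources used here, so reads are not counted as independent molecules.

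Cells of a class also varied among themselves, which is given as a description over cells that share a library. In LB EPI every cell had reads of ACSL3 and FABP5, and both were lower in cells with more NANOG, the pluripotency factor. Over the 45 cells Pearson's r with NANOG was -0.53 for ACSL3 and -0.56 for FABP5 on log2(CPM + 10). Within replicates 2, 3 and 5 (11, 9 and 24 cells) it was -0.097, -0.63 and -0.46 for ACSL3 and -0.22, -0.49 and -0.71 for FABP5, negative in each library but close to 0 for ACSL3 in replicate 2. With GATA3, a trophectoderm factor, r was 0.52 for ACSL3 and 0.43 for FABP5. Within replicates 2, 3 and 5 it was 0.035, 0.87 and 0.40 for ACSL3 and -0.30, 0.80 and 0.56 for FABP5. In replicate 5 a single cell of 24826 reads held 32.5% of the FABP5 sum, with GATA3 at 121 CPM and NANOG at 363 CPM. Another cell of replicate 5 had the lowest NANOG of the class, 126 CPM, and the highest GATA3, 252 CPM. Its FABP5 was at 189 CPM. The part of these cells in r was not tested. Depth went with FABP5 as well, with r = -0.40 to the log2 reads of a cell, against -0.13 for ACSL3. Within replicates 2, 3 and 5 it was 0.67, -0.12 and -0.60 for FABP5, so its sign turned between libraries. For ACSL3 it was -0.39, -0.18 and -0.25 there, negative in each library. The part of depth was not tested for either gene.

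**Figure D4:**
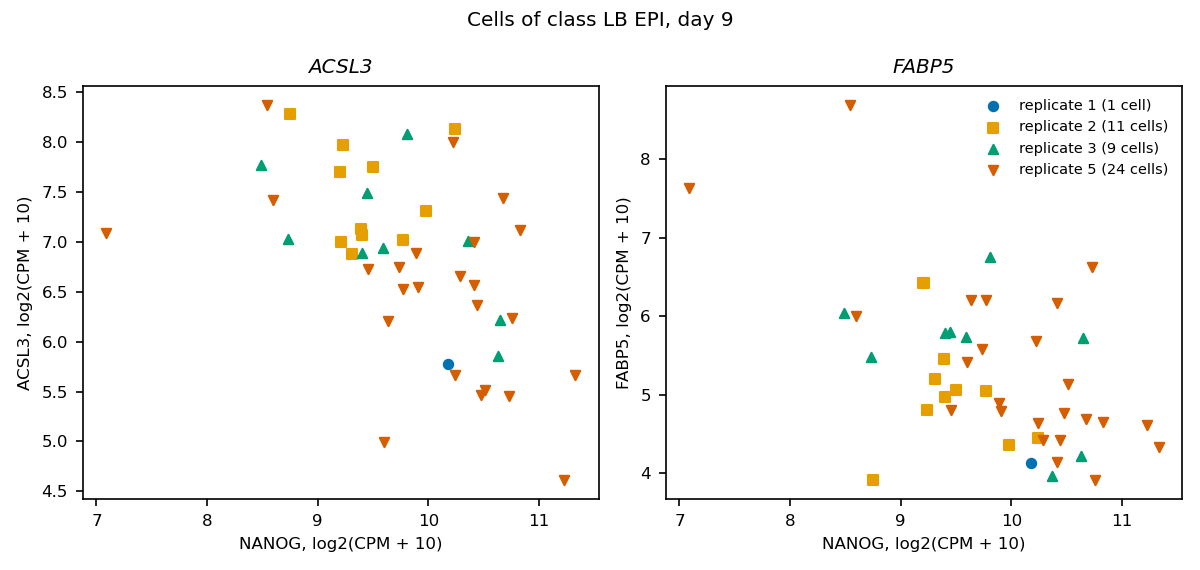
Log2(CPM + 10) of ACSL3 (left) and FABP5 (right) against that of NANOG in each of the 45 LB EPI cells, with 1 symbol per library. Cells with more NANOG tend to lie lower in both panels, with Pearson's r of -0.53 and -0.56.

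In MB ICM FABP3 and PLIN2 varied together over 51 cells (r = 0.61), and within replicates 1 and 2 r was 0.39 and 0.67. Both also went with the reads of the cell (r = 0.62 for FABP3 and 0.50 for PLIN2), mostly in replicate 2 (0.81 and 0.71) and hardly in replicate 1 (0.029 and 0.12). The part of depth in this was not tested. With PDGFRA, a hypoblast receptor, r of FABP3 was 0.39 over all cells, but -0.047 in replicate 1 and 0.57 in replicate 2, so the libraries differed in sign. In MB TE FABP3 and FABP5 gave r = -0.42 over 37 cells, with -0.34 in replicate 1 and 0.31 in replicate 2.

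Over the 16 library averages FABP3 went most closely with PLIN2 among the members (r = 0.83) and PLIN3 with ACSL3 (0.83). FABP5 went with PLIN3 (0.72) and against PLIN2 (-0.75), and ACSL3 went against PLIN2 (-0.71). These averages share libraries and classes, so the values describe the pattern and carry no p. Among 10986 other genes with a symbol the closest in pattern to FABP3 were CARD19 (r = 0.95), CAPRIN1 (0.94) and DHRS7 (0.91), and to FABP5 they were AGTRAP (0.92), PLAU (0.90) and LRRK1 (0.90). COBLL1 (0.98), MYO1D (0.94) and RAP1A (0.93) were closest to ACSL3, and PGPEP1 (0.91), DUSP13 (0.91) and TKDP1 (0.89) to MOGAT1. ADH5 (0.90), GEMIN2 (0.90) and U2AF1L4 (0.89) were closest to PLIN2, and NHLRC2 (0.91), CFL2 (0.91) and STT3B (0.90) to PLIN3. DGAT1 was followed by NOL12 (0.86), FANCE (0.81) and MFSD5 (0.80) and DGAT2 by KCNT1 (0.87), WNK4 (0.87) and TRPM6 (0.86).

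Of 97 other genes of the pathway 77 were tested, and most calls among them were between the lineages. In MB TE 11 were called higher and 4 lower than in MB ICM, where 5.97% and 4.11% of all tested genes were called. ACSL6 and ACSL4, synthetases of the same family as ACSL3, were higher, at 160 ± 35.8 and 183 ± 59.9 CPM in MB TE, against 16.7 ± 14.0 and 34.9 ± 24.1 CPM in MB ICM (SD, n = 3 each). The log2 changes were 2.72 (SE 0.36, adjusted p = 3.6e-05) and 2.14 (SE 0.34, adjusted p = 0.000253). ACSF2, a mitochondrial synthetase, was lower, at 25.5 ± 11.2 CPM in MB TE, against 240.0 ± 38.9 CPM in MB ICM, a log2 change of -2.79 (SE 0.34, adjusted p = 1.51e-05). MOGAT2, the intestinal counterpart of MOGAT1, was also lower, at 0.177, 0.425 and 0 CPM in MB TE, against 62.4, 26.7 and 20.6 CPM in MB ICM (log2 change -2.12, SE 0.30, adjusted p = 6.03e-05). By list the higher genes were 3 of 9 other acyl-CoA synthetases, 2 of 15 other glycerolipid enzymes, 2 of 10 droplet coat and assembly genes, 3 of 6 lipolysis genes and 1 of 10 regulators. Of 21 fatty acid oxidation genes and 6 other carriers and uptake genes 0 were called by limma in either direction, with 3 and 2 at an unadjusted p under 0.05.

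In LB TE 13 of the 77 were called higher and 4 lower than in LB EPI, where 8.27% and 6.90% of all tested genes were called. Of 21 fatty acid oxidation genes 4 were higher and 0 lower. ACSL6 rose by 2.95 in log2 terms (SE 0.40, adjusted p = 3.15e-05). AGPAT2, which makes phosphatidic acid, rose by 2.21 (SE 0.46, adjusted p = 0.0019), which missed the threshold without replicate 5 (adjusted p = 0.0578). CIDEA, which promotes droplet fusion, rose by 1.56 (SE 0.30, adjusted p = 0.00111), at 26.9 and 27.8 CPM in LB TE, against 6.00, 0.965 and 2.67 CPM in LB EPI. AUP1, a droplet protein, rose by 1.46 (SE 0.31, adjusted p = 0.00252), which missed the threshold without replicate 3 (adjusted p = 0.0546).

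In LB PE 7 of the 77 were called higher and 3 lower than in LB EPI, where 2.98% and 2.41% of all tested genes were called. Against LB TE 5 were called higher and 6 lower, with 2.46% and 3.39% of all tested genes. SLC27A4, a fatty acid transporter, was at 148 and 140.0 CPM in LB PE, against 14.0, 19.5 and 12.1 CPM in LB EPI and 20.2 and 11.4 CPM in LB TE. No other library of the 16 reached the level of LB PE, and the log2 changes were 2.67 (SE 0.40, adjusted p = 0.000332) and 2.60 (SE 0.43, adjusted p = 0.000772). MOGAT2 was at 26.7 and 14.2 CPM in LB PE, against 0.407, 0.727 and 1.11 CPM in LB EPI, a log2 change of 1.47 (SE 0.33, adjusted p = 0.0103) that lost its call without replicate 3 (adjusted p = 0.154). AGPAT4 rose against LB EPI by 1.88 (SE 0.38, adjusted p = 0.00539) and AGPAT5 fell by 1.65 (SE 0.32, adjusted p = 0.00352), and without replicate 5 both calls were lost (adjusted p = 0.0701 and 0.0517). Against LB TE the droplet protein CIDEB was higher by 1.65 (SE 0.36, adjusted p = 0.007) and CIDEA and the oxidation enzyme DECR1 were lower, with -1.53 (SE 0.33, adjusted p = 0.00604) and -1.44 (SE 0.32, adjusted p = 0.00771). All 3 calls were lost without replicate 5 (adjusted p = 0.235, 0.177 and 0.271).

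Between days LB EPI had 3 of the 77 called higher and 3 lower than MB ICM, near the 3.29% and 1.81% of all tested genes. GPAT3, the first enzyme of glycerolipid synthesis, was at 247 ± 16.5 CPM in LB EPI, against 42.6 ± 29.0 CPM in MB ICM (SD, n = 3 each), a log2 change of 2.38 (SE 0.33, adjusted p = 0.000207). AGPAT5 was higher by 1.66 (SE 0.29, adjusted p = 0.00127) and MOGAT2 lower, with -1.98 (SE 0.30, adjusted p = 0.000408). CPT1A, which admits fatty acids to mitochondria, was lower as well, with -1.40 (SE 0.34, adjusted p = 0.0171), which missed the threshold without replicate 1 (adjusted p = 0.0787), 2 (0.0658) or 3 (0.0935). In EB against Morula, in LB TE against MB TE and in LB PE against MB ICM 0 of the 77 were called by limma, with 3, 9 and 12 at an unadjusted p under 0.05, and limma-voom called 0, 1 and 0. The trophectoderm difference changed between the days for 3 of the 77, AGPAT5 (-2.47, SE 0.42, adjusted p = 0.0111), CIDEA (1.92, SE 0.41, adjusted p = 0.0385) and MOGAT2 (2.07, SE 0.44, adjusted p = 0.0409). For MOGAT2 both TE classes were near 0, at 0 to 0.674 CPM in LB TE and 0 to 0.425 CPM in MB TE, and the classes they were set against differed, with 0.747 CPM in LB EPI and 36.6 CPM in MB ICM. Each of these 3 calls was lost without replicate 1 (adjusted p = 0.0942, 0.212 and 0.208), 3 (0.28, 0.398 and 0.494) or 5 (0.0849, 0.145 and 0.115), and those of CIDEA and MOGAT2 also without replicate 2 (0.0997 and 0.131) or 4 (0.0576 and 0.0596).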

How the data were processed

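Single cells were tied to their library by the code in their names and to a class and day by the authors' cell table of 288 cells, 2 of them without values. The deposited table holds natural log values, ln(1 + value per 10000), as the values themselves show. Per the submitters' processing notes, the build was ARS-UCD1.2 and the tools were Seurat, featureCounts, HISAT2 and Trim Galore, given with no order, version or setting. The sources at hand do not state how cells were filtered or named. Undoing the log gave 100% whole multiples of each cell's smallest step within 0.1 reads, which gave the reads per cell (48628984 in all). Of 48 cell barcodes 46 occur in all 6 libraries.

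Values were put per 1000000, the mean over at least 3 cells of 1 class in 1 library was taken, and tests used log2(CPM + 10), which understates changes of low genes. Genes with 10 CPM in at least 1 average were tested. A single limma 3.58.1 fit in R 4.3.3 (trend and robust options, two-sided, statmod 1.5.0) covered all 7 classes with the library as a random block, because classes share libraries, and their averages deviated together (consensus correlation 0.18). Every adjusted p is limma's after Benjamini-Hochberg adjustment; SE stands for standard error. The code was tested on simulated data. The RefSeq gene list of ARS-UCD2.0, another build, gave only gene names (8 of 8 members matched) and overlaps of genes.

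The members, pathway lists, markers and alternatives were chosen with earlier results of these data known. Named pathway genes were up to 4 called genes per comparison with the smallest adjusted p, and similar genes the 3 with the highest correlation to a member. Alternatives were a pseudocount of 1, no filter, rescaling by the median of ratios, limma-voom on summed reads, at least 5 cells per average, the mean of log2 values over cells, cells of at least 20000 reads, no block or a fixed block, and leaving out each library.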

Additional observations from a re-analysis of the deposited data

Results flagged for a closer look

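The trophectoderm difference of MOGAT1 was not the same on both days. The log2 difference of LB TE from LB EPI exceeded that of MB TE from MB ICM by 2.66 (SE 0.47, adjusted p = 0.0123 from limma, in a test of the difference itself). MOGAT1 was higher in LB TE than in LB EPI in both libraries that held both classes, by 2.35 (replicate 3) and 2.25 (replicate 5), and in MB TE against MB ICM the 2 shared libraries gave -0.48 (replicate 1) and 0.20 (replicate 2).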

How the results depend on the processing

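Over the alternatives the 23 called changes of members kept their direction, and in 284 of 345 refits also their call. The calls of FABP3, FABP5 and ACSL3 in MB TE against MB ICM, of FABP5, MOGAT1 and ACSL3 in LB TE against LB EPI and of FABP3 in LB PE against LB TE held in every one. Members called in LB PE against LB EPI numbered 4, but 2 with no filter, with the mean of log2 values and with no replicate block, and 0 to 4 when a library was left out. In LB PE against LB TE leaving out a library gave 1 to 4 in place of 4, and in LB TE against MB TE 0 to 1 in place of 1. In LB EPI against MB ICM 1 became 2 with limma-voom, with at least 5 cells and with cells of at least 20000 reads, 0 with the mean of log2 values, and 0 to 2 without a library. The added call was FABP3 each time. The 1 call in LB PE against MB ICM became 0 with a pseudocount of 1, no filter, limma-voom, at least 5 cells, the mean of log2 values, no replicate block and a fixed replicate block, and 0 to 1 without a library. The 1 call of the day difference became 0 with a pseudocount of 1, and 0 to 1 without a library. Of the uncalled member changes only 12 were followed over the alternatives. Among these the sign turned for DGAT1 in MB TE against MB ICM (-0.037 with limma-voom, -0.31 to 0.60 without a library). It also turned for FABP3 in LB PE against MB ICM (-0.0066 with no replicate block, -0.13 to 0.59 without a library). Other uncalled changes may turn too, as DGAT1 in LB PE against LB TE was -0.13 but 0.095 within replicate 5. Beyond LB PE against LB EPI and MB ICM, the replicate block moved PLIN2 in LB TE against LB EPI (adjusted p = 0.111 with no block) and ACSL3 in LB PE against LB TE (0.0945), and CIDEA and MOGAT2 in the day difference (0.111 each). The cause of these shifts was not tested.

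Over all alternatives the genes called in the whole table ranged from 635 to 1657 around 1264 in MB TE against MB ICM, 851 to 3131 around 1902 in LB TE against LB EPI, 260 to 994 around 676 in LB PE against LB EPI and 169 to 1246 around 734 in LB PE against LB TE. They ranged from 1 to 83 around 10 in EB against Morula, 3 to 86 around 24 in LB TE against MB TE, 315 to 1087 around 640 in LB EPI against MB ICM, 0 to 269 around 88 in LB PE against MB ICM and 0 to 155 around 46 for the day difference. Other pathway genes called ranged from 9 to 20 (15), 9 to 21 (17), 4 to 12 (10) and 1 to 16 (11) in the 4 comparisons of lineages. LB PE rests on 2 libraries and the shallowest cells, and DGAT2 on few reads in every day 9 class.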
